A study of Gallus gallus with 2 samples.

Results

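The cytosolic ribosomal protein (RP) genes are those whose products, with ribosomal RNA, form the ribosome of the cytoplasm. They were taken from the deposited expression values by symbol, namely RPL or RPS followed by a number and at most a paralog letter or digit, RPSA, and RPLP0 to RPLP2, which leaves out the kinases named RPS6K. This gave 73 of 23842 genes, 44 of the large subunit (RPL and RPLP) and 29 of the small subunit (RPS and RPSA). The rule uses the symbol and no measured value.

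Basilar papilla (BP) explants, the auditory epithelium of the bird with its hair cells (HCs) and supporting cells (SCs), came from male Momiji chicks at posthatch day 1. Explants of the post-SM6 group received streptomycin (SM), an aminoglycoside that kills chick HCs, for 48 h and were then cultured for 6 h without it. The SM0 explants were taken before SM exposure. Each time point had 1 library made from RNA of 50 pooled BPs, freed from surrounding tissue with thermolysin, so no replicates exist, no test was run, and all differences describe these 2 libraries. No explants cultured for the same time without SM were analysed here, so SM, time in culture and differences between the pools cannot be told apart.

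Values are TPM, a unit of transcript abundance that corrects reads for the length of each transcript and brings every library to one total. TPM keep no sequencing depth, and the read counts that the paper lists were not used, so the depth behind a value is not given here. Changes are the log2 of post-SM6 over SM0 after 0.1 TPM was added to both, and a gene was called higher or lower when it changed by at least 1.3-fold, a log2 change of 0.38, with at least 1 TPM in either library. A TPM is a share, so a gain of one group of genes is a loss of the others.

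Each ribosome holds 1 copy of nearly every RP, and cells make these proteins in matched amounts. The small subunit reads the mRNA, and the large subunit joins amino acids and passes the growing chain through its exit tunnel. The mRNAs of RPs begin with a stretch of pyrimidines, the 5′ terminal oligopyrimidine (TOP) motif, through which mTOR signaling and the binding protein LARP1 control their translation and stability together. RP mRNAs are among the most abundant in growing and in resting cells.

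RP genes took a larger share of the transcripts after HC loss. Their summed TPM was 186237 at post-SM6, against 151005 at SM0, or 18.6% and 15.1% of all TPM. The sum was 1.23-fold higher, a gain of 35232 TPM. Of the 73 genes, 64 gained TPM and 9 lost TPM, and the 9 losses came to -797 TPM together. The gain was therefore spread over most of the family, although the 10 genes with the largest gains made up 44.9% of it.

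Both subunits moved alike. Genes of the large subunit summed to 99346 TPM at post-SM6, against 81517 TPM at SM0. Genes of the small subunit summed to 86891 TPM at post-SM6, against 69488 TPM at SM0. The sums were 1.22-fold higher for the large and 1.25-fold higher for the small subunit, so that the ratio of large to small was 1.14 at post-SM6 and 1.17 at SM0. Without replicates it cannot be said whether the subunits differ from each other.

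**Figure D1:**
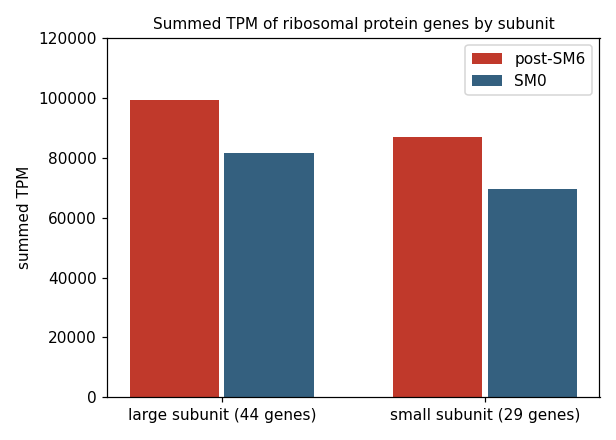
Summed TPM (vertical axis, from 0) of the 44 large subunit and the 29 small subunit genes in the post-SM6 library (red) and the SM0 library (blue). Both post-SM6 bars stand above the SM0 bars, at 99346 against 81517 TPM and at 86891 against 69488 TPM. Each bar is 1 library, so there are no error bars.

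The shift of single genes was mostly small and mostly in one direction. With at least 1 TPM in either library, 72 RP genes could be called, and 64 of them, 88.9%, had a log2 change above 0, against 47.9% of all 13321 genes at this level. Their median log2 change was 0.30, against -0.02 over all genes, and the range between their quartiles lay between 0.17 and 0.38, where the quartiles of all genes were -0.35 and 0.35. By the 1.3-fold criterion, 16 of 72 RP genes (22.2%) rose, against 23.9% of all genes, so the share past that fold was close to the background. Only 2 of 72 (2.78%) fell by 1.3-fold, against 23.3% of all genes. None of the 72 RP genes rose by 2-fold and 1 fell by 2-fold or more, against 1273 and 1043 of all 13321 genes.

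The criterion of 1.3-fold cut through the bulk of the family. RPL11 was just inside it with a log2 change of 0.379, and RPS24 just outside with 0.378. In the range from 0.35 up to the criterion lay 11 RP genes. When both libraries were brought to a median ratio of 1 over genes averaging 10 TPM or more, 27 RP genes rose by 1.3-fold, and when TPM were rescaled over the genes that are not RP genes, 31 did. When the 10 most abundant genes of the libraries, 5 of them RP genes, were left out and TPM rescaled, 8 of the remaining RP genes rose by 1.3-fold. The shares of all genes that rose under these scalings are not given here, so these counts have no background beside them. The median of the RP genes stayed between 0.28 and 0.37 under these scalings. A rescaling shifts every gene by nearly the same amount, at most 0.061 on the log2 scale. The median could therefore move little, and its stability is no support for the value.

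Other abundant genes did not show the same shift. Among the 343 other genes with mean TPM of at least 300, a limit chosen after the values were seen, the median log2 change was -0.01, and 171 of them, 49.9%, were above 0. The 69 RP genes above the same limit had a median of 0.31, with 63 above 0. Of the other genes at this level, 81 (23.6%) rose and 81 (23.6%) fell by 1.3-fold. Of the 69 RP genes, 16 (23.2%) rose and 1 (1.45%) fell, so the shares that rose were alike and the shares that fell were not.

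**Figure D2:**
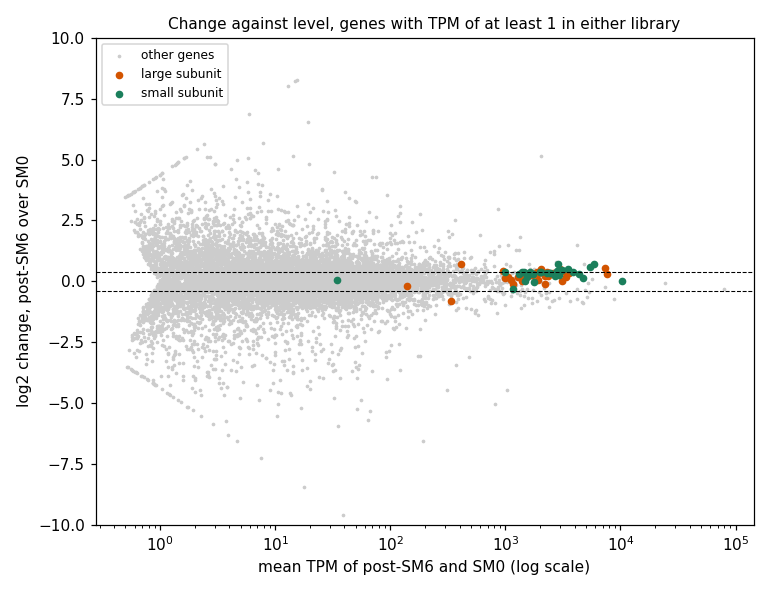
Log2 change at post-SM6 over SM0 (vertical axis) against mean TPM of both libraries (horizontal axis, log scale) for genes with at least 1 TPM in either library. RP genes of the large (orange) and small (green) subunit lie in a narrow band at high TPM, mostly between 0 and the upper dashed line, and dashed lines mark 1.3-fold either way. A gene of the small subunit whose values are not reported here is not drawn.

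The level of most RP genes was high. A mean TPM of at least 500 was reached by 67 RP genes, whose median was 2271 TPM at post-SM6, against 1785 TPM at SM0. Among these 67, TPM ran from 1036 to 10281 at post-SM6, and from 822 to 10337 at SM0. The spread from the lowest to the highest was 9.93-fold at post-SM6 and 12.6-fold at SM0. The order of the genes was nearly the same in both libraries, with a Spearman correlation of 0.97 across the 67 genes, which share the same 2 libraries and are not independent replicates. Levels of 1000 TPM or more were reached by 67 RP genes at post-SM6, of 156 genes in all, and by 64 at SM0, of 151 genes in all. RP genes took 50 of the 100 highest places at post-SM6 and 43 of the 100 highest at SM0.

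**Figure D3:**
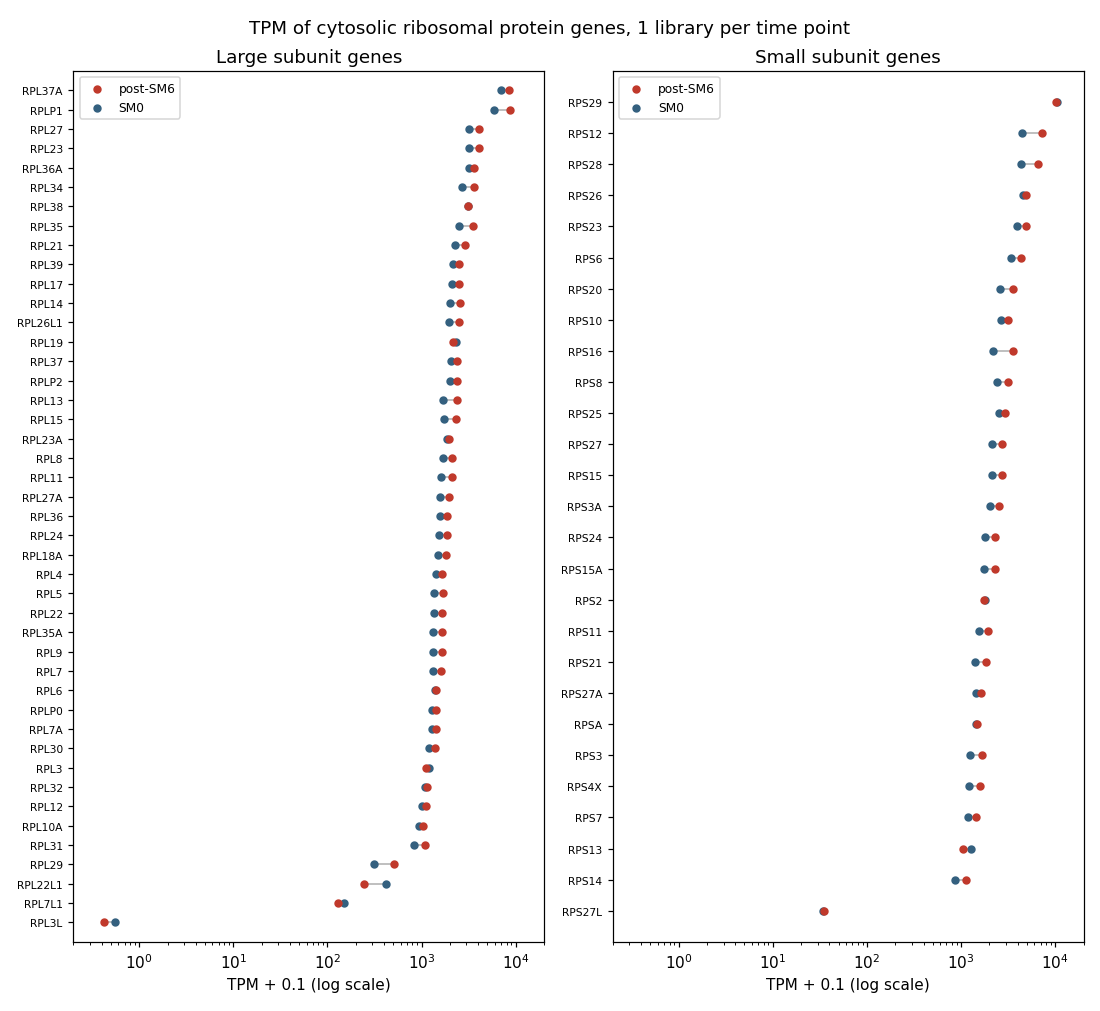
TPM plus 0.1 (horizontal axis, log scale) of 71 of the 73 RP genes in the post-SM6 (red) and the SM0 (blue) library, large subunit left and small subunit right, ordered by mean TPM. Most red points lie to the right of their blue partner by a small step, and RPL22L1, RPL3L, RPL7L1 and RPS13 are among those with the red point to the left.

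Among the 10 most abundant RP genes, those of the small subunit included RPS29 (gene ID 776054), a zinc-binding protein of the subunit's head. It had 10281 TPM at post-SM6, against 10337 TPM at SM0, the highest level of any RP gene in both and a log2 change of -0.01. RPS12 (gene ID 421698), another protein of the head, rose to 7304 TPM at post-SM6, against 4493 TPM at SM0. Its log2 change was 0.70. RPS28, which sits in the head by the path of the mRNA, had 6510 TPM at post-SM6, against 4316 TPM at SM0, with a log2 change of 0.59. The neighbours in this order without such a change were RPS26, RPS23 and RPS6. RPS26, which lies where the mRNA leaves the subunit, had 4915 TPM at post-SM6 and 4513 TPM at SM0. RPS23, a protein of the decoding centre, had 4861 TPM at post-SM6 and 3895 TPM at SM0. RPS6, the substrate of S6 kinases, had 4365 TPM at post-SM6 and 3368 TPM at SM0, and its log2 change of 0.37 was just under the criterion.

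In the large subunit the most abundant were RPL37A and RPLP1. RPL37A, a zinc-binding protein, had 8482 TPM at post-SM6 and 6955 TPM at SM0, a log2 change of 0.29. RPLP1 (gene ID 396262) belongs to the stalk, the flexible arm on the large subunit that recruits elongation factors. It rose to 8635 TPM at post-SM6, against 5926 TPM at SM0, a log2 change of 0.54. RPLP2, which pairs with it, had 2379 TPM at post-SM6 and 2016 TPM at SM0, a log2 change of 0.24, and RPLP0, the base of the stalk, had 1437 TPM at post-SM6 and 1283 TPM at SM0, a log2 change of 0.16. All 3 stalk genes were higher at post-SM6, as were 64 of 72 RP genes and 47.9% of all genes. Only RPLP1 passed 1.3-fold, where 22.2% of RP genes and 23.9% of all genes rose. With 3 genes this is no result about the stalk. The other large subunit genes among the most abundant were RPL27 and RPL23. RPL27 had 4086 TPM at post-SM6 and 3157 TPM at SM0, and RPL23 had 4033 TPM at post-SM6 and 3161 TPM at SM0.

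RPL29 (gene ID 770249) had the highest log2 change of the family in these libraries. This small protein of the large subunit, also described in humans as a heparin-binding protein, rose to 513 TPM at post-SM6, against 310 TPM at SM0. Its log2 change was 0.73, from a level well under that of most RP genes. RPS16 (gene ID 417871) followed with 3574 TPM at post-SM6, against 2185 TPM at SM0, and a log2 change of 0.71. The tail of RPS16 reaches the tRNA in the decoding cleft. RPL13 rose to 2401 TPM at post-SM6, against 1675 TPM at SM0, with a log2 change of 0.52.

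RPS20, also of the small subunit's head, rose as well. It had 3593 TPM at post-SM6 and 2582 TPM at SM0, a log2 change of 0.48. Of the large subunit, RPL35, which lies at the mouth of the exit tunnel, had 3494 TPM at post-SM6 and 2483 TPM at SM0, a log2 change of 0.49. RPL34 had 3620 TPM at post-SM6 and 2686 TPM at SM0, a log2 change of 0.43. With RPL29, RPS16, RPS12, RPS28, RPLP1 and RPL13, these are 9 of the 10 RP genes with the highest log2 change.

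By position in the ribosome, 12 genes of the head of the small subunit had a median log2 change of 0.36. Of these, 6 (50.0%) rose and 1 (8.33%) fell, against 23.9% and 23.3% of all genes. The 16 genes of its body had a median of 0.36 too, and 2 of them (12.5%) rose, a share under that of all genes. RPS6, RPS15A, RPS14, RPS21 and RPS24 of the body had log2 changes from 0.374 to 0.378, just under the criterion. The shares of head and body that rose thus depend on where the cut lies and are not a result about position. The quartiles were 0.25 and 0.38 for the body genes, and 0.21 and 0.52 for the head genes. Around the exit tunnel, 8 genes had a median of 0.24 and 2 rose, a share near the 23.9% of all genes. RPL5 and RPL11, which carry the 5S ribosomal RNA into the large subunit and bind MDM2 when assembly fails, moved together. RPL5 had 1697 TPM at post-SM6 and 1367 TPM at SM0, a log2 change of 0.31, and RPL11 had 2111 TPM at post-SM6 and 1623 TPM at SM0. Which of these position groups differ cannot be tested with 1 library per time point.

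A few core RP genes did not share the upward shift. RPS13 (gene ID 414782), which binds the central part of the small subunit's RNA, had 1040 TPM at post-SM6, against 1277 TPM at SM0. Its log2 change of -0.30 was under the criterion of 1.3-fold. It stayed below 0 under the 4 scalings tried, but these shift genes by at most 0.061 and could not have turned its sign. RPL19, a protein that bridges both subunits, had 2137 TPM at post-SM6 and 2314 TPM at SM0, a log2 change of -0.11. RPL3, which lies near the peptidyl transferase centre, had 1121 TPM at post-SM6 and 1197 TPM at SM0, a log2 change of -0.09. The remaining genes with low values were nearly level. RPS2, at the entry of the mRNA channel, had 1761 TPM at post-SM6 and 1796 TPM at SM0. RPL38, whose loss in mice alters the translation of Hox mRNAs, had 3104 TPM at post-SM6 and 3088 TPM at SM0. RPSA, also known as the precursor of a laminin receptor, had 1480 TPM at post-SM6 and 1455 TPM at SM0. The sign of the change of RPS2 and of RPS29 turned positive with the median-ratio scaling, and that of RPL38 and RPSA turned negative without the 10 most abundant genes, so no direction is given for these 4.

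RPL22L1 and its partner gene moved apart. RPL22L1 (gene ID 100858296) fell to 244 TPM at post-SM6, against 424 TPM at SM0, a log2 change of -0.79. RPL22 (gene ID 373937), at the surface of the large subunit near the tunnel exit, had 1660 TPM at post-SM6 and 1344 TPM at SM0, a log2 change of 0.31. RPL22L1 thus stood at 14.7% of RPL22 at post-SM6 and at 31.5% at SM0. In mice, RPL22 is known to hold down the expression of Rpl22l1, and either protein can take the same place in the ribosome. The log2 change of RPL22L1 minus that of RPL22 was -1.10, and a ratio of 2 genes in the same library is not altered by scaling.

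RPL7L1, related to an assembly factor of the large subunit in yeast, had 129 TPM at post-SM6 and 149 TPM at SM0, a log2 change of -0.21. Relative to RPL7, it stood at 7.95% at post-SM6 and at 11.3% at SM0. RPS27L, a target of p53 in humans, had 34.8 TPM at post-SM6 and 33.7 TPM at SM0, or 1.26% of RPS27 at post-SM6 and 1.57% at SM0. All 3 paralogs were thus lower at post-SM6 relative to their partner, although RPS27L itself was level. RPL7 and RPS27 had log2 changes of 0.30 and 0.36, near the median of the RP genes. Any level gene would be lower relative to them, so these 2 ratios partly restate the shift of the family. RPL3L, the form of RPL3 in striated muscle of mammals, was below 1 TPM in both libraries, with 0.32 TPM at post-SM6 and 0.46 TPM at SM0. RPL26L1 is listed here without a gene of the symbol RPL26. It had 2519 TPM at post-SM6 and 1965 TPM at SM0, a level like that of the core RP genes, and a log2 change of 0.36. Paralogs and their partners can share reads, so these values are less certain than those of other RP genes.

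**Figure D4:**
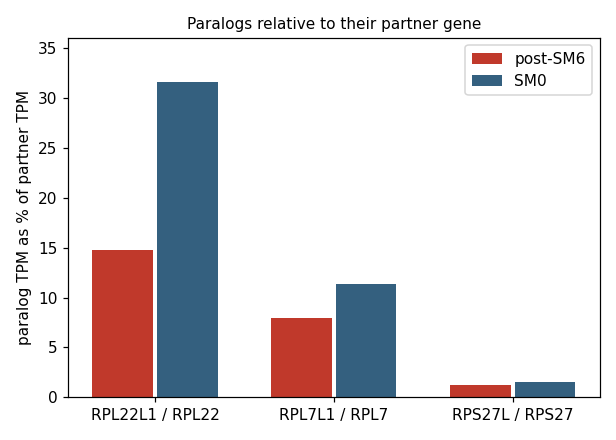
TPM of the paralog as a percentage of the TPM of its partner gene (vertical axis, from 0) in the post-SM6 (red) and SM0 (blue) library. RPL22L1 stands at 14.7% of RPL22 at post-SM6 and 31.5% at SM0, and the differences for RPL7L1 and RPS27L are smaller. Each bar is 1 library.

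Compared with a list of 80 RP names of the complete vertebrate ribosome, 68 were found by the rule. A further 3 have rows under names outside it, FAU and RACK1 among them. FAU, which encodes a small subunit protein fused to a ubiquitin-like one, had 2833 TPM at post-SM6 and 2374 TPM at SM0. RACK1, a signaling scaffold on the head of the small subunit, had 1309 TPM at post-SM6 and 1178 TPM at SM0. Their log2 changes of 0.25 and 0.15 lay on the same side as those of most RP genes. The other 9 names, RPL10, RPL13A, RPL18, RPL26, RPL28, RPL41, RPS9, RPS18 and RPS19, had no row of that symbol and were not analysed here. Over the 71 names with a row, the median log2 change was 0.30.

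Genes that help to build ribosomes went the other way. Of 49 ribosome assembly factors, 29 (59.2%, against 23.3% of all genes) fell by 1.3-fold. Only 1 (2.04%, against 23.9% of all genes) rose, and 46 of the 49 had a log2 change below 0. Their median was -0.45, and their summed TPM was 1604 at post-SM6, against 2216 at SM0. UTP4, of the complex that processes the small subunit's RNA, had 11.7 TPM at post-SM6 and 23.2 TPM at SM0, a log2 change of -0.98. NOP56, a core protein of the particles that methylate ribosomal RNA, had 50.1 TPM at post-SM6 and 97.3 TPM at SM0. NCL, which encodes nucleolin, had 268 TPM at post-SM6 and 477 TPM at SM0, a log2 change of -0.83. These 3 had the lowest log2 changes of the list. The only one that rose was RIOK1, a kinase of late small subunit maturation, with 38.3 TPM at post-SM6 and 26.3 TPM at SM0. MRTO4, with 54.9 TPM at post-SM6 and 50.1 TPM at SM0, and SBDS, with 70.8 TPM at post-SM6 and 65.5 TPM at SM0, were the other assembly factors above 0.

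RNA polymerase I, which transcribes ribosomal RNA, and its factors showed less. Of 16 genes, 3 (18.8%) fell and 1 (6.25%) rose, both shares under the 23.3% and 23.9% of all genes, and the median log2 change was -0.14. POLR2L, a subunit shared with the other nuclear RNA polymerases, fell to 556 TPM at post-SM6, against 867 TPM at SM0. TAF1D and RRN3, both needed to start transcription by this polymerase, fell as well. TAF1D had 16.7 TPM at post-SM6 and 25.4 TPM at SM0, and RRN3 had 11.9 TPM at post-SM6 and 15.7 TPM at SM0. POLR2E, another shared subunit, rose to 118 TPM at post-SM6, against 85.7 TPM at SM0. TTF1 and TAF1B, the next highest of the list, both had a log2 change of 0.12.

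Translation factors did not share the gain of the RP genes. Of 26 initiation factor genes, 4 (15.4%) fell by 1.3-fold, under the 23.3% of all genes, none rose, and 22 had a log2 change below 0, with a median of -0.20. EIF4H, EIF1, EIF2B5 and EIF3B had log2 changes from -0.378 to -0.370, just short of the criterion. The share that fell thus depends on where the cut lies. EIF5, which triggers GTP hydrolysis at the start codon, had 312 TPM at post-SM6 and 462 TPM at SM0, a log2 change of -0.57. EIF2S2, a subunit of the factor that brings the initiator tRNA, had 92.3 TPM at post-SM6 and 127 TPM at SM0. EIF3J had 94.5 TPM at post-SM6 and 127 TPM at SM0. At the other end stood EIF3L, EIF3M and EIF4E, which were higher by less than 1.3-fold. EIF3L had 153 TPM at post-SM6 and 119 TPM at SM0. EIF3M had 222 TPM at post-SM6 and 174 TPM at SM0, and EIF4E, the cap-binding protein, had 42.7 TPM at post-SM6 and 38.5 TPM at SM0.

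The list of other mRNAs with a TOP motif held 20 genes, 3 of which encode ribosomal components. EEF1G was listed at 0 in both libraries. Of the 19 others, 1 (5.26%, against 23.9% of all genes) rose. A log2 change above 0 was seen in 12 of the 19 (63.2%, against 47.9% of all genes), with a median of 0.07. Without the 3 ribosomal components, the median of 16 genes was 0.05, and they summed to 14776 TPM at post-SM6 and 14346 TPM at SM0. The gene that rose was EEF1D, an exchange factor of translation elongation, with 1266 TPM at post-SM6 and 769 TPM at SM0, a log2 change of 0.72. TPT1 had 2168 TPM at post-SM6 and 1808 TPM at SM0, a log2 change of 0.26. EEF1A1, the most abundant elongation factor, had 5074 TPM at post-SM6 and 5357 TPM at SM0. BTF3, NAP1L1 and VIM had the lowest changes of the list. BTF3, of the complex that binds nascent chains, had 219 TPM at post-SM6 and 273 TPM at SM0, a log2 change of -0.32. NAP1L1 and VIM had log2 changes of -0.17 and -0.14.

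Other large complexes lacked the shift as well. The 74 genes of the mitochondrial ribosome had a median log2 change of 0.00, with 37 above and 37 below 0. By 1.3-fold, 2 (2.7%) rose and 5 (6.76%) fell, both shares under the 23.9% and 23.3% of all genes. The summed TPM of the mitochondrial ribosome was 5461 at post-SM6, against 5291 at SM0. For 30 proteasome genes the median was -0.04, and for 68 nuclear genes of the respiratory chain it was 0.03. The difference of these lists from the RP genes was not tested, because genes of a library are not replicates.

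**Figure D5:**
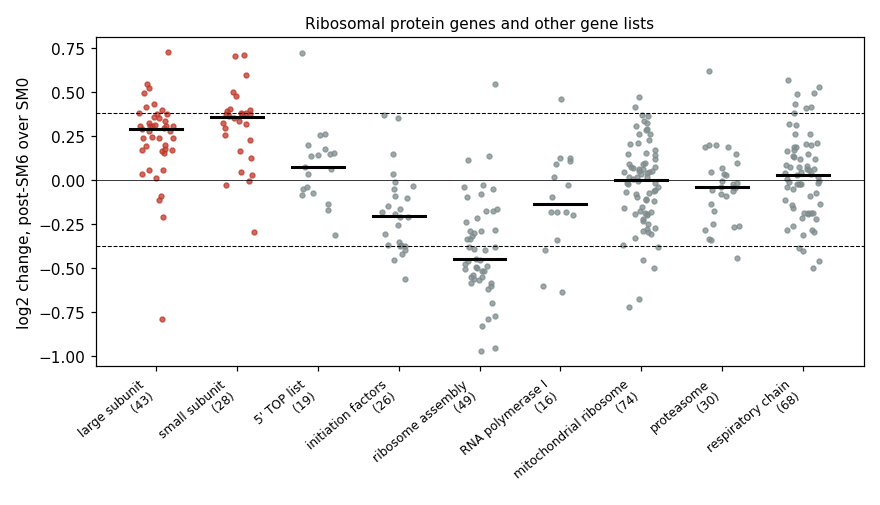
Log2 change at post-SM6 over SM0 (vertical axis) for genes with at least 1 TPM in either library, by list, with the number of genes in parentheses, black bars at the medians and dashed lines at 1.3-fold. The RP genes (red) are centred on 0.29 (large subunit) and 0.36 (28 genes of the small subunit, 1 not drawn), the ribosome assembly factors on -0.45, and the mitochondrial ribosome on 0.00.

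Among 18 genes that control translation or ribosome synthesis, 3 (16.7%) rose and 4 (22.2%) fell, shares no higher than the 23.9% and 23.3% of all genes. RPS6KB1, the kinase of RPS6, fell to 20.7 TPM at post-SM6, against 34.4 TPM at SM0, a log2 change of -0.73. DDIT4, an inhibitor of mTOR signaling, fell to 216.5 TPM at post-SM6, against 354.5 TPM at SM0. LARP1, which binds the TOP motif, fell to 43.0 TPM at post-SM6, against 61.2 TPM at SM0. MYC, a driver of ribosome synthesis, was the other gene that fell, with 124 TPM at post-SM6 and 175 TPM at SM0. The genes that rose were MYCN, EEF2K and EIF4EBP1. MYCN was low, with 3.31 TPM at post-SM6 and 1.63 TPM at SM0. EEF2K, which inhibits elongation, had 20.6 TPM at post-SM6 and 14.5 TPM at SM0. EIF4EBP1, which holds back the cap-binding protein, had 321 TPM at post-SM6 and 243 TPM at SM0. MTOR itself had a log2 change of -0.09.

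The makeup of the tissue and of the libraries moved along with the RP genes. Of 18 HC markers, 17 (94.4%, against 23.3% of all genes) fell and 1 rose by 1.3-fold. CDH23 and TMIE of this list reached 1 TPM only at SM0, so they could only be lower at post-SM6. The summed TPM of the HC list was 228 at post-SM6, against 1033 at SM0. Of 14 SC markers, 6 (42.9%) rose and 1 (7.14%) fell, against 23.9% and 23.3% of all genes. The SC list summed to 3443 TPM at post-SM6 and 2192 TPM at SM0. SOX2 was the SC marker that fell, with 77.2 TPM at post-SM6 and 146 TPM at SM0. The highest TPM of this list was that of GJB6, with 1292 TPM at post-SM6 and 469 TPM at SM0. All 13 fibroblast markers and 10 of 11 leukocyte markers (90.9%) rose, against 23.9% of all genes. The leukocyte markers PTPRC, CYBB, C1QA, SPI1, C1QC and C1QB and the fibroblast marker TWIST1 were under 1 TPM at SM0. They met the minimum only through post-SM6 and so could only be higher there, which limits what these shares mean. The fibroblast list summed to 2523 TPM at post-SM6 and 943 TPM at SM0. Of these sums, SPARC alone had 1865 TPM at post-SM6 and 776 TPM at SM0. The leukocyte list summed to 167 TPM at post-SM6 and 75.5 TPM at SM0. Of these sums, CD74 had 91.4 TPM at post-SM6 and 30.5 TPM at SM0. CD3E, the highest of the leukocyte list at SM0, was level, with 33.9 TPM at post-SM6 and 34.4 TPM at SM0. None of the HC, SC, fibroblast or leukocyte markers was listed at 0 in either library. In such bulk RNA alone, fewer cells of a type and less RNA per cell cannot be told apart. For HCs, the paper's myosin VIIa staining of separate explants found virtually none over a span that includes post-SM6. S100A1, the most abundant transcript, had 70025 TPM at post-SM6 and 87560 TPM at SM0, a difference of -17535 TPM. The 13 mitochondrially encoded genes summed to 27101 TPM at post-SM6 and 38850 TPM at SM0. When these genes were left out and TPM rescaled, the median log2 change of the RP genes was 0.29, and when the 10 most abundant genes were left out, it was 0.28. Such a rescaling shifts all remaining genes by nearly the same amount, so these medians could move only a little. The part of cell makeup in the change of the RP genes was not tested.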

How the data were processed

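The authors sequenced poly(A)-selected RNA of 1 library per time point, removed ribosomal RNA reads with Bowtie2 2.1.0, aligned the rest to GRCg6a with STAR 2.7.1a, and estimated expression with RSEM 1.3.0. The deposited values are TPM per NCBI gene ID for 23842 genes, divided by transcript length and scaled to 1 sum per library. The header of the post-SM6 values reads 54, for the hours from the start of exposure. The authors' calls with DESeq2 rest on read counts, which a TPM table does not hold, and no count test was run. The annotation release is not given in the sources used here.

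RP genes were matched by symbol. The members and the gene lists were chosen with earlier results of these data known. Log2 changes used a pseudocount of 0.1 TPM, and counts used a fold of 1.3 over the 13321 genes that reached 1 TPM in at least one library. Named are the 10 RP genes with the highest mean TPM, the 10 at either end of the log2 changes, the stalk, the 5S carriers, the paralogs, and the extremes of the translation lists. The values of some genes are not reported here, and these genes were kept in the counts, sums and medians. Genes named beside these were chosen after their values were seen. Markers are given as sums and counts, and those named singly were chosen after their values were seen. Red blood cell markers were 3 of 6 genes above 1 TPM, all 3 lower at post-SM6, with sums of 10.0 TPM at post-SM6 and 25.4 TPM at SM0. IDs were checked against the RefSeq table of GRCg7b, which gives RPL39, RPSA and RPS4X other current symbols. No coordinates of that table are printed. Short transcripts, as of many RP genes, have effective lengths that depend on the fragment length model, so levels between genes are uncertain. Whether fragment lengths differed between the 2 libraries was not tested, so changes of short transcripts carry this limit too. The code was run on SM0 values with known folds, far above 1.3-fold and without noise, set into some genes. That checks the arithmetic only and not calls near the criterion. Python 3.11.15, numpy 2.4.6, pandas 2.3.3, scipy 1.17.1 and matplotlib 3.10.9 were used.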

Additional observations from a re-analysis of the deposited data

How the results depend on the processing

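Of 11 alternatives, the number of RP genes that rose by 1.3-fold, 16 as reported, was 27 with the libraries brought to a median ratio of 1 over genes averaging 10 TPM or more, 31 with TPM rescaled over the other genes and 8 without the 10 most abundant genes, 5 of which are RP genes. With a fold of 1.5 it was 4 and with a fold of 2 it was 0. The number that fell, 2 as reported, was 3 with no minimum TPM, 1 with a fold of 2 and 1 without RP genes under 1 TPM or on the paralog list. Of 49 assembly factors, 10 fell by 1.5-fold and 0 by 2-fold. By 2-fold, 1273 of all 13321 genes rose and 1043 fell. The shares of all genes under the other alternatives are not given here, so those counts have no background beside them. The medians of the RP, mitochondrial ribosome, TOP and assembly lists and the ratio of subunit sums moved by less than 0.1 on the log2 scale under each alternative that could change them, and so did the log2 changes of 31 RP genes. For the single genes, and for the medians under the rescalings, this was set in advance. A rescaling shifts all of them by nearly the same amount, at most 0.061 on the log2 scale, and pseudocounts matter little at their levels. Their small moves are therefore no support for the values. No paired analysis was possible because each time point has 1 library. No library could be left out for the same reason. TPM keep no depth, and the read counts that the paper lists were not used here, so no counting error is given.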
